A study of Mus musculus with 10 samples.

Results

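The spermatogonia (SpG) of the library labelled Nfya-CKO were set against preleptotene spermatocytes (pL), the cells that carry out the last S phase before meiosis. Both populations were taken by the authors' own cell names. The CKO-labelled SpG were 491 of 45250 cells by scRNA-seq, all from the 8-week-old Nfya-CKO testis. The pL were 1761 cells, of which 1045 came from wild-type testes at 11 dpp, 672 from 17 dpp, 38 from 25 dpp and 6 from the 8-week-old Cre/+ testis. In the Nfya-CKO mice, of C57BL/6J background, a Cre expressed from the Stra8 gene deletes part of Nfya, and Cre/+ mice carry the same Cre. Undifferentiated (undiff.) SpG, used as a further comparison, were 1292 cells, of which the wild-type testes gave 646 (11 dpp), 262 (17 dpp) and 280 (25 dpp), the Cre/+ testis 102 and the Nfya-CKO testis 1. Differentiating (diff.) SpG were 927 cells, of which 783 came from the Cre/+ testis, 108 from wild type at 25 dpp, 22 at 11 dpp and 12 at 17 dpp, so they differ from pL in age and genotype too. Early leptotene, leptotene and zygotene cells (eL/L/Z) were 5705, with 1353, 1839 and 2431 from 11, 17 and 25 dpp, 74 from the Cre/+ testis and 4 from the Nfya-CKO testis. For undiff. SpG, diff. SpG and eL/L/Z these counts fall slightly short of the totals, and the few remaining cells were not placed in a library here. Both assays used the same nuclei, and scATAC-seq cells were retained for 470 of the 491 CKO-labelled SpG and 1721 of the 1761 pL, with a single library of each assay per condition. Genotype, age and library therefore cannot be told apart in this comparison, nor from the difference in cell stage between SpG and pL. The comparison has no replicate check, and no p-value is given. A gene is called higher or lower by size alone, at 2-fold for RNA and at 1.5-fold for accessibility.

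Meiotic entry in the male mouse follows retinoic acid, which acts on differentiating SpG and pL. STRA8 and MEIOSIN form a transcription factor complex that turns on meiotic genes in the S phase of pL, while MEIOC with YTHDC2 lowers mitotic transcripts. The genes turned on then build the chromosome axis, form and mark DNA breaks, tether telomeres to the nuclear envelope and exchange strands between homologs. NFYA is the subunit of the trimer NF-Y that binds the CCAAT box, a common element of promoters. The comparison asks which of these steps were below the pL level in the cells labelled as lacking Nfya.

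RNA values are mean UMIs per 10000 UMIs of a cell, pooled over the cells of a population, and RNA ratios are log2 ratios after adding 0.1. In all, 13320 of 28125 genes reached a mean of 0.05 and were compared. Another 3126 genes, at least 20 times higher in the somatic cells of the Nfya-CKO testis than in undiff. SpG, were left aside. Accessibility is the authors' pooled scATAC-seq value per gene, scaled here to 1000000 per population, with ratios taken after adding 1. The study's methods define promoter accessibility as the mean normalised coverage in a window around the start site, and whether the deposited values per gene were made in this way is not stated.

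Nfya itself, on chromosome 17, was checked first, and its RNA was not lower in the CKO-labelled SpG. It was 0.46 per 10000 in undiff. SpG, 0.67 in diff. SpG, 0.41 in pL and 1.11 in the CKO-labelled SpG, which is 2.34-fold above pL. These values are sums over the whole gene and do not show which exons were read. Accessibility of Nfya was 134 per 1000000 in pL and 58.7 in the CKO-labelled SpG, a log2 ratio of -1.17. Of the other subunits, Nfyb had an RNA log2 ratio of 0.19 and Nfyc one of -0.26.

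The populations differed in more than genotype. Median depth was 18361 UMIs per cell in the CKO-labelled SpG and 8161 in pL, and the totals behind the 2 columns were 9778830 and 16001344 UMIs. A count of 3 UMIs over all CKO-labelled SpG corresponds to 0.00307 per 10000. TSS enrichment, the signal at start sites over that of flanking windows, had a median of 7.82 in the CKO-labelled SpG and 14.3 in pL. Mitochondrial genes held 46.0% of the scATAC-seq signal in the CKO-labelled SpG and 31.2% in pL, and leaving them out raised the median accessibility log2 ratio of all genes from -0.10 to 0.18. Sorted by chromatin alone, 46.8% of the pL nuclei fell with eL/L/Z and 36.8% with undiff. SpG, and no chromatin population was named pL. The pL column of accessibility is therefore taken to hold nuclei named by their RNA, which the sources used here do not state.

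Leydig cell RNA was present in the CKO-labelled SpG. Insl3, a Leydig cell hormone, was at 39.8 per 10000, against 0.02 in pL and 177 in the somatic cells of that testis. The 9 Leydig markers with at least 1 per 10000 in those somatic cells stood in the CKO-labelled SpG at 16.3% to 24.6% of the somatic level, with a median of 22.7%. Their median accessibility was 4.97 per 1000000 in the CKO-labelled SpG and 8.52 in pL. All 10 Leydig markers were left aside, and the genes left aside summed to 311 per 10000 in the CKO-labelled SpG and 20.8 in pL. Of the 17 Sertoli markers, 13 were compared, with a median log2 ratio of 0.08. With no gene left aside 16 were compared, 4 were higher and the median was 0.58, against 11.0% higher over all genes. The 12 Sertoli markers with at least 1 per 10000 in the somatic cells summed to 39.4 per 10000 in the CKO-labelled SpG and 16.5 in pL. Their level was 19.8% to 30.6% of the somatic one, with a median of 23.5%, close to the Leydig share. The few markers of other cells gave other shares, with 3.08% to 12.1% for 3 peritubular and endothelial markers and 40.9% for Cd74, the macrophage marker that reached this level. Meioc and Prss50 were at 0.63 and 0.73 in the somatic cells but at 0.05 and 0.04 in the CKO-labelled SpG, which is less than 22.7% of the somatic level. A share of 22.7% thus does not hold for these genes or for the peritubular and endothelial markers. An alternative added after seeing the data took 22.7% of the RNA of the CKO-labelled SpG as somatic. It scaled every gene of the CKO-labelled SpG up by the same factor, which raises a log2 ratio by up to 0.37. No somatic profile was subtracted, so somatic genes rise as well. The counts under it, given below as those with the somatic share removed, stand with the lists described. Over all genes 18.3% were then higher and 2.52% lower, with a median of 0.39, and the list counts under it are read against these. Under this scaling 4 of 13 Sertoli markers were higher, with their somatic RNA not taken off, and of the NF-Y subunits 1 of 3.

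Libraries also shared cell barcodes. Of the 491 CKO-labelled SpG, 175 had a barcode that also occurred in the Cre/+ library, where the cell with that barcode held a median of 10.5% as many UMIs (range 8.13% to 16.6%). Of these 175 partners, 143 were named diff. SpG, and they made up 15.4% of the 927 cells of that population. With all cells of the Nfya-CKO library counted, 448 of the 927 diff. SpG shared a barcode with it. Of the 1761 pL, 335 shared a barcode with another library, and 392 partner cells, with a median of 4.24% as many UMIs, were named eL/L/Z. No barcode was shared between the CKO-labelled SpG and pL. The deposited matrices are pooled, so values without these cells could not be computed. Undiff. SpG shared barcodes with other libraries as well, in 420 of 1292 cells (32.5%), 58 of which had one in common with the Nfya-CKO library. Over all cells 23.3% shared a barcode. Undiff. SpG, diff. SpG and eL/L/Z stand beside the comparison below with this limit, and no CKO-labelled SpG had a partner with 5 times its UMIs or more.

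By marker genes the CKO-labelled SpG were spermatogonia. RNA of Gfra1, Zbtb16, Etv5, Id4, Sall4 and Uchl1 was above pL for all 6, with log2 ratios from 0.88 to 3.26, although Sall4 and Id4 were within 2-fold. Spermatid RNA was near 0, with Acrv1 at 0.01 and Prm1 at 0.02 per 10000. Stra8, a marker of pL, was at 4.86 there, above undiff. SpG (2.05), diff. SpG (2.59) and eL/L/Z (2.67).

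Over all genes, 725 of 13320 were lower in the CKO-labelled SpG than in pL (5.44%) and 1349 were higher (10.1%), with a median log2 ratio of 0.10. The 7 meiotic lists (entry regulators, axis and cohesin, synapsis, telomere attachment, break formation, strand exchange and crossover) hold 101 genes, of which 98 were compared. Of these, 19 were lower (19.4%) and 2 were higher, and the median log2 ratio was -0.47. With the somatic share removed, 9 of the 98 stayed at least 2-fold lower, against 2.52% of all genes. With diff. SpG as the comparison 18 of 98 were lower, against 10.9% of all genes. Of 21 pachytene and spermatid genes 17 were lower in that comparison, with a median of -2.92, and the part of later germ cell RNA in the diff. SpG values was not tested. With undiff. SpG 2 of 96 were, against 3.45%, with a median of -0.08. A ratio below 0 against pL was found for 73 of the 98, and for 56 with the somatic share removed, and most of the 98 were within 2-fold of pL.

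**Figure D1:**
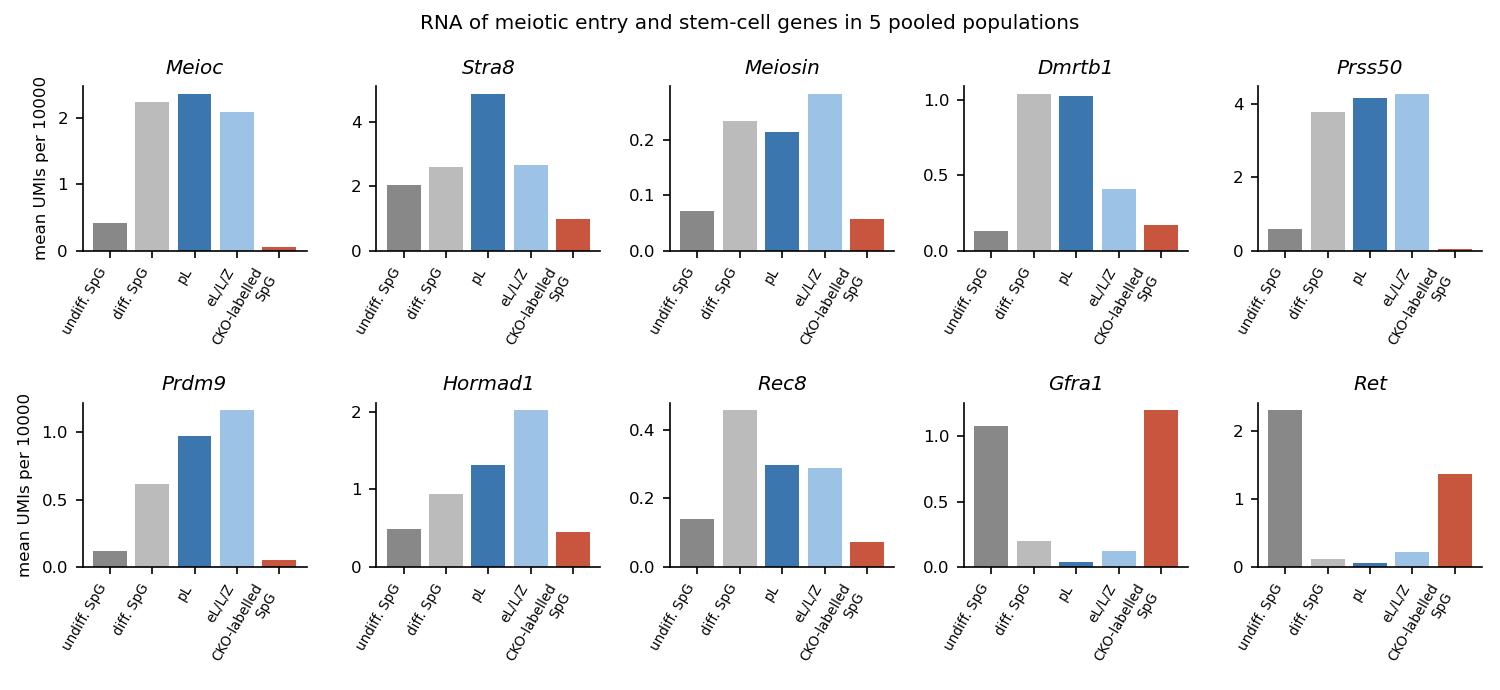
Mean RNA (UMIs per 10000, axis from 0) of 10 genes in 5 pooled populations, with 1 bar per population and no error bars because each is 1 pooled value. Meioc, Prss50 and Prdm9 are at 0.051, 0.042 and 0.051 in the CKO-labelled SpG (red), whereas Gfra1 and Ret are at 1.20 and 1.36.

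The promoters of genes at the centre of the comparison are shown first, because NF-Y binds the CCAAT box. They are those of Stra8, Meiosin and the 8 further genes of the meiotic lists that had the lowest accessibility ratios among those with lower RNA. They run from 250 bases before to 50 after the start site, 5′ to 3′ on the strand of the gene, from RefSeq for GRCm38.p6, the build of mm10. Capitals mark each CCAAT and each ATTGG, its reverse complement. Of these 10 genes, 6, with 7 promoters in all, were found in RefSeq's promoter table. Majin, Tex11, Ctcfl and Esco2 were not matched. Over all 32851 promoters in that table, 37.4% hold at least 1 match and 11.7% at least 2. Stra8 (chr6:34920698-34920997, plus strand) holds 4 matches, Meiosin (chr7:19118295-19118594, minus strand) holds 1, Meioc (chr11:102665335-102665634, plus strand) holds 2, Rpa2 (chr4:132768110-132768409, plus strand) holds 3 and Rbm46 (chr3:82876434-82876733, minus strand) holds 2. Dmrtb1 has 2 listed promoters on the minus strand, of which chr4:107683540-107683839 holds 0 and chr4:107684181-107684480 holds 1.
Stra8: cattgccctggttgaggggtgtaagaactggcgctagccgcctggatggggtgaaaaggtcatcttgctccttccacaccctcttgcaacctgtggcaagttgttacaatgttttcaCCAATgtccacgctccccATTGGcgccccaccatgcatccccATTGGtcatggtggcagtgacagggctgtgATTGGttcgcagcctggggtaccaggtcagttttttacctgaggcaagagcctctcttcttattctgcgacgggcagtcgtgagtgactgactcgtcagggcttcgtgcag
Meiosin: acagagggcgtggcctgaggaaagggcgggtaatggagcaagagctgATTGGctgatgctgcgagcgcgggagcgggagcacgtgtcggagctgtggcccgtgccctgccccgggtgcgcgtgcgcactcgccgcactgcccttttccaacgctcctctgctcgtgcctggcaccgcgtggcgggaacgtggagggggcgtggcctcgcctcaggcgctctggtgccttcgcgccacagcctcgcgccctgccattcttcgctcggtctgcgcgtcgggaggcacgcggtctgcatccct
Meioc: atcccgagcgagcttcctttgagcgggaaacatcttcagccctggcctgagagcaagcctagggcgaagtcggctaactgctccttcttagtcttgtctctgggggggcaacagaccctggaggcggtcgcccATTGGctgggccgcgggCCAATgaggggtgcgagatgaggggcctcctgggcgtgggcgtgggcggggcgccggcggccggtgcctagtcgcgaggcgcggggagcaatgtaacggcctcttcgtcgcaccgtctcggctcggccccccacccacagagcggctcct
Rpa2: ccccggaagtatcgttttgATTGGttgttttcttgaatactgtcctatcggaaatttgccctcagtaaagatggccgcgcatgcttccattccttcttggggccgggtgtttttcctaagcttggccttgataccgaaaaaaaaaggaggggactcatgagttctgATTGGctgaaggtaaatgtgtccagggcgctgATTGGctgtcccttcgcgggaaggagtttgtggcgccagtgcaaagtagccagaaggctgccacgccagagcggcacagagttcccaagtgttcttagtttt
Rbm46: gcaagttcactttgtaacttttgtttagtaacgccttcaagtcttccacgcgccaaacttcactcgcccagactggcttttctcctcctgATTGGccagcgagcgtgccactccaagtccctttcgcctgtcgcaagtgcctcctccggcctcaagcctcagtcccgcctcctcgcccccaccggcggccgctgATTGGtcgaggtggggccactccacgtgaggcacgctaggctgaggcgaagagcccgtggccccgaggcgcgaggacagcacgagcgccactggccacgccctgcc
Dmrtb1 (promoter without a match): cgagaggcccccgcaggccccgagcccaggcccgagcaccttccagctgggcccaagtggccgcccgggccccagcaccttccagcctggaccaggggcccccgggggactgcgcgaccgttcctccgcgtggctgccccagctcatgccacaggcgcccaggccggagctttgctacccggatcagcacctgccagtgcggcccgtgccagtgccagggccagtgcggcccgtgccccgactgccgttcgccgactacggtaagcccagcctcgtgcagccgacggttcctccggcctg
Dmrtb1 (promoter with a match): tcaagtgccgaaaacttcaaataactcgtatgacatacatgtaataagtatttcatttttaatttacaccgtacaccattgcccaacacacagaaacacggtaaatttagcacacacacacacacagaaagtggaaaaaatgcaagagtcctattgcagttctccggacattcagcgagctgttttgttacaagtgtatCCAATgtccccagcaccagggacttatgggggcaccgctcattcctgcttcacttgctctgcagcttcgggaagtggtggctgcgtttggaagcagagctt
Counted from the start site, the matches begin at -117 and -100 in Meioc and at -133, -115, -91 and -61 in Stra8. A match is a description of the sequence and not a measured site of binding.

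The regulators of entry did not move together. Of 28 regulators 27 were compared, 6 were lower and 2 were higher, against 5.44% and 10.1% of all genes, and the median log2 ratio was -0.21. With the somatic share removed 3 were lower, against 2.52%, and the median was 0.09. The 6 lower genes were Meioc, Stra8, Dmrtb1, Dazl, Rbm46 and Ctcfl.

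Meioc, whose protein keeps the mitotic programme from resuming in spermatocytes, had the lowest ratio among them. Its RNA was 0.41 per 10000 in undiff. SpG, 2.24 in diff. SpG, 2.37 in pL, 2.09 in eL/L/Z and 0.05 in the CKO-labelled SpG. The value in the CKO-labelled SpG rests on about 50.2 UMIs and lies below every other population named here, with a log2 ratio to pL of -4.03. Accessibility was 28.0 per 1000000 in undiff. SpG, 64.8 in diff. SpG, 61.0 in pL, 58.1 in eL/L/Z and 8.55 in the CKO-labelled SpG. This log2 ratio of -2.70 was the lowest of all 27342 genes compared. Both measures of Meioc were thus below undiff. SpG as well as below pL. Ythdc2, whose RNA helicase product works with MEIOC, had an RNA log2 ratio of -0.59, within the 2-fold limit.

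Stra8, the retinoic acid target that names the transition, was at 0.97 in the CKO-labelled SpG and 4.86 in pL, a log2 ratio of -2.21. It was also below undiff. SpG. Its accessibility, 29.4 per 1000000, was like that of undiff. SpG (28.4), and both were below pL (68.7). Stra8 is also the locus from which the Cre is expressed, and the part of that allele in these values was not tested. Meiosin (Gm4969 in the files, Bhmg1 in RefSeq), the partner of STRA8, was low everywhere, with 0.22 in pL, 0.07 in undiff. SpG and 0.06 in the CKO-labelled SpG. It was just within the limit at 1.996-fold lower, on about 56.8 UMIs, and its accessibility log2 ratio was -1.11.

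Dmrtb1 (DMRT6), which closes the spermatogonial programme before meiosis, had 1.03 in pL, 0.13 in undiff. SpG and 0.17 in the CKO-labelled SpG. Its level in the CKO-labelled SpG was therefore that of undiff. SpG and far from that of pL. Dazl, an RNA-binding protein of germ cells that translation in early meiosis needs, was at 17.5 in pL, 13.2 in undiff. SpG and 6.80 in the CKO-labelled SpG, lower than in either. Rbm46, another RNA-binding protein of meiotic entry, had a log2 ratio of -1.12 and Ctcfl, a germ cell paralog of CTCF, one of -1.08.

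The other regulators compared were within 2-fold of pL or higher. Sohlh1, a transcription factor of differentiating SpG, was at 1.90 in the CKO-labelled SpG, 1.75 in undiff. SpG and 0.77 in pL, a log2 ratio of 1.20. Pcgf6, a Polycomb subunit that silences meiotic genes with MGA and MAX, had one of 1.08, while Mga had 0.55 and Max 0.22. The retinoic acid receptors Rara and Rarg had log2 ratios of 0.09 and 0.64. Kit, the receptor of differentiating SpG, was at 2.09 in pL, 0.55 in undiff. SpG and 1.08 in the CKO-labelled SpG, which lies between undiff. SpG and pL. Dmrt1, which holds back meiosis in spermatogonia, was at 3.76 in undiff. SpG, 4.31 in pL and 4.48 in the CKO-labelled SpG.

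**Figure D2:**
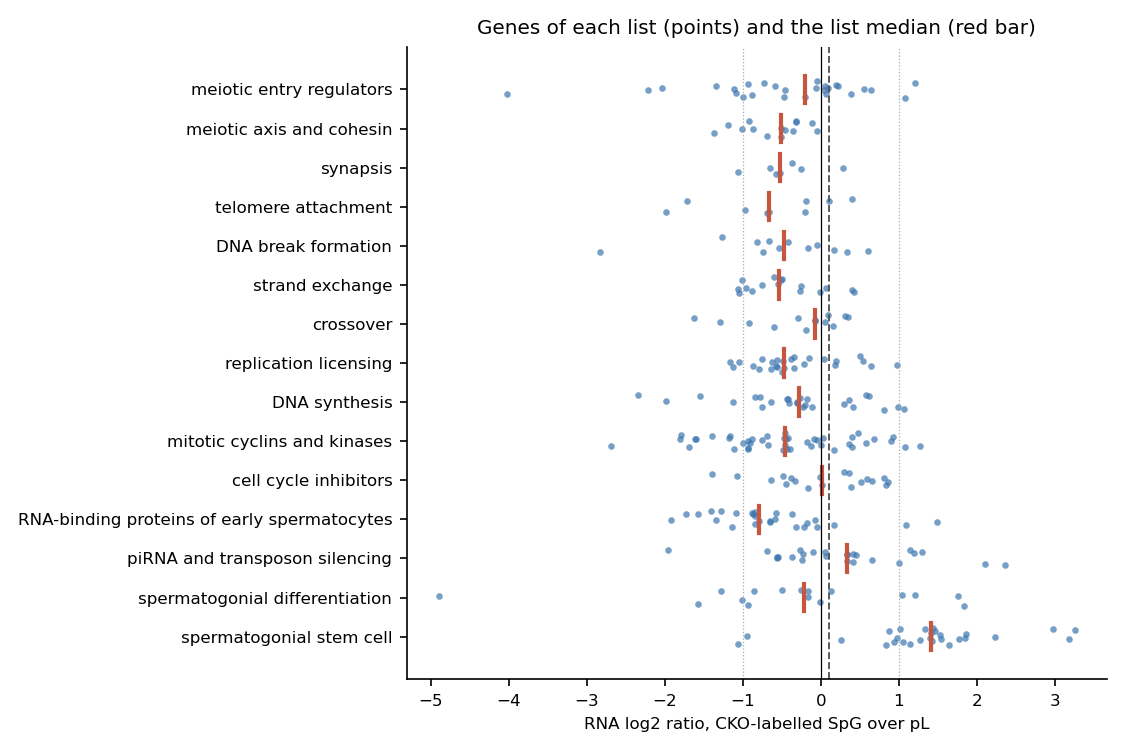
RNA log2 ratio of CKO-labelled SpG over pL (x axis) for the genes of 15 lists (1 point per gene, red bar for the list median). The dotted lines mark 2-fold and the dashed line the median of all genes, 0.10. The stem-cell list lies mostly to the right and has a median of 1.41, and the meiotic lists lie mostly to the left.

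Axis and cohesin genes were mostly within 2-fold of pL. All 14 compared had a negative log2 ratio, with a median of -0.51, where that of all genes was 0.10. Of the 14, 3 were lower by 2-fold and none was higher, against 5.44% and 10.1% of all genes. Hormad1, an axis protein that recruits the break machinery, was at 1.31 in pL, 0.49 in undiff. SpG and 0.45 in the CKO-labelled SpG. Rec8, the meiotic kleisin, was at 0.30, 0.14 and 0.07. Esco2, a cohesin acetyltransferase of S phase, had a log2 ratio of -1.01. Rec8 stood below undiff. SpG as well as below pL, whereas Hormad1 was near its level in undiff. SpG. The other 11 genes of the list were within 2-fold of pL. Sycp3, which makes up the lateral element, was at 1.20 in pL and 1.15 in the CKO-labelled SpG, above the 0.67 of undiff. SpG. Sycp2, its partner, was at 3.85 and 3.07, and Stag3, the meiotic cohesin subunit, at 1.70 and 1.16. With the somatic share removed, the median of the list was -0.16, 10 of the 14 ratios were below 0 and 2 genes were lower. Over all genes the median was then 0.39 and 2.52% were lower.

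Of the synapsis genes, which build the bridge between paired axes, 1 of 7 was lower and none was higher, against 5.44% and 10.1% of all genes. The lower gene was 4930447C04Rik (Six6os1), with 7.23 in pL and 3.42 in the CKO-labelled SpG, and with the somatic share removed none of the list was lower. Sycp1, the transverse filament protein, was at 8.68 in pL, 5.74 in undiff. SpG and 5.80 in the CKO-labelled SpG. Of 9 telomere attachment genes 2 were lower, both at -1.71 or less, and none was higher, against 5.44% and 10.1% of all genes. Majin, a membrane anchor of telomeres, was at 1.04 in pL, 0.32 in undiff. SpG and 0.25 in the CKO-labelled SpG. Spdya, an activator of CDK2 at telomeres, was at 0.57, 0.16 and 0.07. Both passed the limit also with the somatic share removed, when 2 of the 9 were lower, against 2.52% of all genes.

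Break formation genes differed among themselves. Prdm9, the methyltransferase that marks hotspots, was at 0.97 in pL, 1.16 in eL/L/Z, 0.12 in undiff. SpG and 0.05 in the CKO-labelled SpG, a log2 ratio of -2.83. Ccdc36 (Iho1), which ties break factors to the axis, had a ratio of -1.27. These were the 2 lower genes of 12, and no gene was higher, against 5.44% and 10.1% of all genes. Only Prdm9 of the 12 was still 2-fold lower once the somatic share was removed, against 2.52% of all genes. Mei4 and Gm960 (Top6bl) had ratios of -0.82 and -0.75, and Ankrd31 had one of 0.17. Spo11, the break enzyme, was at 0.10 in pL and 0.15 in the CKO-labelled SpG, low in both. Zcwpw1, the reader of the PRDM9 mark, had an RNA ratio of -0.42 and an accessibility ratio of -1.26.

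Among strand exchange genes, 3 of 16 were lower and none was higher, against 5.44% and 10.1% of all genes, and the median was -0.53. Dmc1, the meiotic recombinase, was at 1.79 in pL, 0.77 in undiff. SpG and 0.81 in the CKO-labelled SpG. Rpa2, which coats single strands, had a log2 ratio of -1.07 and Rad54l one of -1.01. All 3 were within 2-fold once the somatic share was removed. Brca1 and Brca2, which act in mitotic repair as well, had ratios of 0.40 and 0.43. Of 13 crossover genes 2 were lower, AI481877 (Shoc1) at -1.63 and Tex11 at -1.29, against 5.44% of all genes. None was higher, against 10.1%, and the median of the list was -0.08. Of the 13, 1 was lower after removal of the somatic share, against 2.52% of all genes, and the median was then 0.23.

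Of 26 licensing genes 3 were lower and none was higher, with a median of -0.48, against 5.44% and 10.1% over all genes. Mcm5 was at 3.14 in pL, 1.84 in undiff. SpG and 1.34 in the CKO-labelled SpG, and Mcm3 at 1.67, 1.21 and 0.71. Other subunits of the same MCM helicase had positive ratios, 0.54 for Mcm2 and 0.97 for Mcm7, so the hexamer's genes did not move together. None of the licensing genes was lower with the somatic share removed. Of 26 DNA synthesis genes 4 were lower and 1 was higher, with a median of -0.29, read against the same shares. These became 3 lower and 3 higher, with a median of 0.06, once the somatic share was removed. Rrm2, the S phase subunit of ribonucleotide reductase, was at 0.99 in pL, 0.21 in undiff. SpG and 0.11 in the CKO-labelled SpG. Pcna, the sliding clamp, was at 1.24, 0.57 and 0.24, and the histone mRNA binder Slbp at 1.79, 0.72 and 0.54. Fen1 had a ratio of -1.13. Rfc4, a clamp loader subunit, was the higher gene, at 1.07.

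Of 44 mitotic genes compared, 10 were lower and 2 were higher, against 5.44% and 10.1% of all genes, and the median was -0.46. After removal of the somatic share 7 were lower, 5 were higher and the median was -0.13, where 2.52% of all genes were lower and 18.3% higher. Cks2, a subunit of cyclin-dependent kinases, was at 1.26 in undiff. SpG, 0.29 in diff. SpG, 1.11 in pL and 0.09 in the CKO-labelled SpG. Top2a was at 3.34, 5.91, 7.21 and 1.98, and Ccnd1 (cyclin D1) at 1.48, 2.62, 4.39 and 1.19. All 3 were lowest in the CKO-labelled SpG, in the case of Cks2 with diff. SpG next. For Ccnd1 the gap to undiff. SpG is within the 0.37 by which removing the somatic share could raise a log2 ratio. The higher genes were Bub1b, of the spindle checkpoint, and Cdk4, with ratios of 1.27 and 1.08. Cenpf was at 17.0 in the CKO-labelled SpG and 9.05 in pL, within the limit. Of 19 cell cycle inhibitors 2 were lower, Cdkn2c at -1.40 and Cdkn2d at -1.08, which both act in male germ cells, and none was higher. After removal of the somatic share 1 was lower and 3 were higher. Over all genes 5.44% were lower and 10.1% higher, and 2.52% and 18.3% after that removal. Trp53 had a ratio of 0.87.

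Stem-cell genes were higher as a group. Of 27 compared of 30, 20 were higher than in pL and 1 was lower, against 10.1% and 5.44% over all genes, and the median was 1.41. Removing the somatic share left 24 higher and none lower, with a median of 1.67. Gfra1, the GDNF receptor subunit of stem cells, was at 0.04 in pL, 1.08 in undiff. SpG and 1.20 in the CKO-labelled SpG. Its signalling partner Ret was at 0.06, 2.30 and 1.36, and the GDNF target Etv5 at 0.05, 0.76 and 1.11. Levels of these genes were thus of the same order as in undiff. SpG. Other stem-cell genes reached less of that level. Zbtb16 (PLZF) was at 1.14 in pL, 8.74 in undiff. SpG and 4.15 in the CKO-labelled SpG, Sall4 at 1.09, 4.88 and 2.08, and Egr4 at 0.23, 4.16 and 1.45. The lower gene was Sox3, of the X chromosome, at 3.31, 6.17 and 1.54. Against undiff. SpG, 6 of 28 were lower and 1 was higher, with a median of -0.36, against 3.45% lower and 3.85% higher over all genes. The members left out for low values were Pou5f1, Nanos2 and Thy1.

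Of 16 genes of spermatogonial differentiation compared, 4 were lower and 4 were higher, against 5.44% and 10.1% of all genes. With the somatic share removed, when 17 were compared, 2 were lower and 4 were higher, with a median of 0.15. Prss50, a testis protease, was at 0.60 in undiff. SpG, 3.79 in diff. SpG, 4.16 in pL, 4.28 in eL/L/Z and 0.04 in the CKO-labelled SpG, a log2 ratio of -4.90 on about 41.5 UMIs. Rhox13 and Dnmt1 had ratios of -1.28 and -1.01, and Stmn1 one of -1.57. The higher genes were Ccnd2 and Ccnd3, D cyclins of spermatogonia, at 1.83 and 1.76, with Sohlh1 and Crabp1, a retinoic acid binder, at 1.20 and 1.04. Crabp1 was at 3.33 in the CKO-labelled SpG against 1.43 in diff. SpG and 1.57 in pL.

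Among piRNA and transposon silencing genes 5 of 25 were higher and 1 was lower, against 10.1% and 5.44% of all genes. With the somatic share removed these were 7 and 1, against 18.3% and 2.52%. Spocd1 and Piwil4 (MIWI2), which direct DNA methylation to transposons, had ratios of 2.36 and 1.29, and Morc1 one of 2.11. Morc1 was at 0.27 in pL, 1.73 in undiff. SpG and 1.51 in the CKO-labelled SpG. Gtsf1 and Tdrd12 were also higher, and Tex101 was lower. Germ cell RNA-binding proteins had a median of -0.80, with 8 of 27 lower and 2 higher, against 5.44% and 10.1% of all genes. Under the scaling for the somatic share 5 were lower, 2 were higher and the median was -0.48. Ybx2, which stores mRNA, was at 2.44 in undiff. SpG, 10.6 in diff. SpG, 2.19 in pL and 0.50 in the CKO-labelled SpG. Hspa5, the chaperone of the endoplasmic reticulum, was at 6.69 in pL and 1.95 in the CKO-labelled SpG. Nxf2 and Nxf3, RNA export factors of the X chromosome, were higher, with ratios of 1.49 and 1.09. Of 22 pachytene and spermatid genes 11 were under the minimum. The 11 compared, Sycp1 among them, had a median level of 0.41 per 10000 in pL and 0.25 in the CKO-labelled SpG. Of these Hspa2 was lower, at 0.48 in pL and 0.06 in the CKO-labelled SpG, and Hspa1l was higher, read against 5.44% and 10.1% of all genes. Of the 12 compared after removal of the somatic share, 1 was lower and 1 higher.

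Where the mean reached 0.2, the 10 lowest RNA ratios were those of Ptma, Prss50, Meioc, Zfp286os, Nt5dc2, Gm10282, Esx1, Runx3, Prdm9 and Elavl3. Meioc, Prss50 and Prdm9 of the lists above are thus among them. Ptma, which encodes prothymosin alpha, was at 31.8 in pL, 14.5 in undiff. SpG, 3.08 in diff. SpG and 0.83 in the CKO-labelled SpG. Esx1, an X-linked homeobox gene, was at 4.62 in pL, 0.38 in undiff. SpG and 0.39 in the CKO-labelled SpG. Ptma was thus lowest in the CKO-labelled SpG, and Esx1 was at like levels there and in undiff. SpG. The 10 highest were Asxl3, Kcnc2, Glis3, Dgkg, Mt1, Gm15218, Large2, Rin2, Gm17660 and AC154200.1. Asxl3, a Polycomb-related gene, was at 12.9 in the CKO-labelled SpG, 10.7 in diff. SpG, 0.97 in undiff. SpG and 0.29 in pL. Kcnc2, a potassium channel, was at 3.06, 0.27, 3.15 and 0.04, and Glis3, a zinc finger transcription factor, at 3.76, 0.57, 5.38 and 0.13. Asxl3 was thus high in diff. SpG, whereas Kcnc2 and Glis3 were high in undiff. SpG. Of the 927 diff. SpG, 15.4% share barcodes with CKO-labelled SpG, and 448 share one with any cell of the Nfya-CKO library. In the somatic cells of the Nfya-CKO testis Asxl3 was at 11.7, Kcnc2 at 0.30 and Glis3 at 0.51. Mt1 was at 15.6 and AC154200.1 at 2.86 in those cells, above the 12.5 and 2.60 of the CKO-labelled SpG. The part of the shared barcodes and of somatic RNA in these values was not tested.

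Accessibility was compared for 27342 genes, of which 6406 were lower by 1.5-fold (23.4%) and 5026 were higher (18.4%). The median was -0.10 over all genes and -0.49 over the 12115 whose mean reached 20 per 1000000, of which 41.5% were lower and 4.04% higher. Most list genes are of this better covered kind, and TSS enrichment was lower in the CKO-labelled SpG, so lists were read against -0.49. The part of TSS enrichment in these ratios was not tested. Of the 101 genes of the 7 meiotic lists, 56 were lower (55.4%) and 3 were higher, with a median of -0.65. Without mitochondrial genes in the scaling 28 were lower and 6 higher, and the median was -0.31, while the better covered genes gave 14.3% lower, 10.6% higher and a median of -0.15. With undiff. SpG as the comparison 16 were lower, 1 was higher and the median was -0.26, and the better covered genes gave 7.23% lower, 0.396% higher and a median of -0.21. Of the 85 better covered list genes, 52 were lower (61.2%), with a median of -0.68. Without mitochondrial genes 25 were lower (29.4%) and 3 higher, with a median of -0.35. Against undiff. SpG 13 were lower (15.3%), with a median of -0.28.

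**Figure D3:**
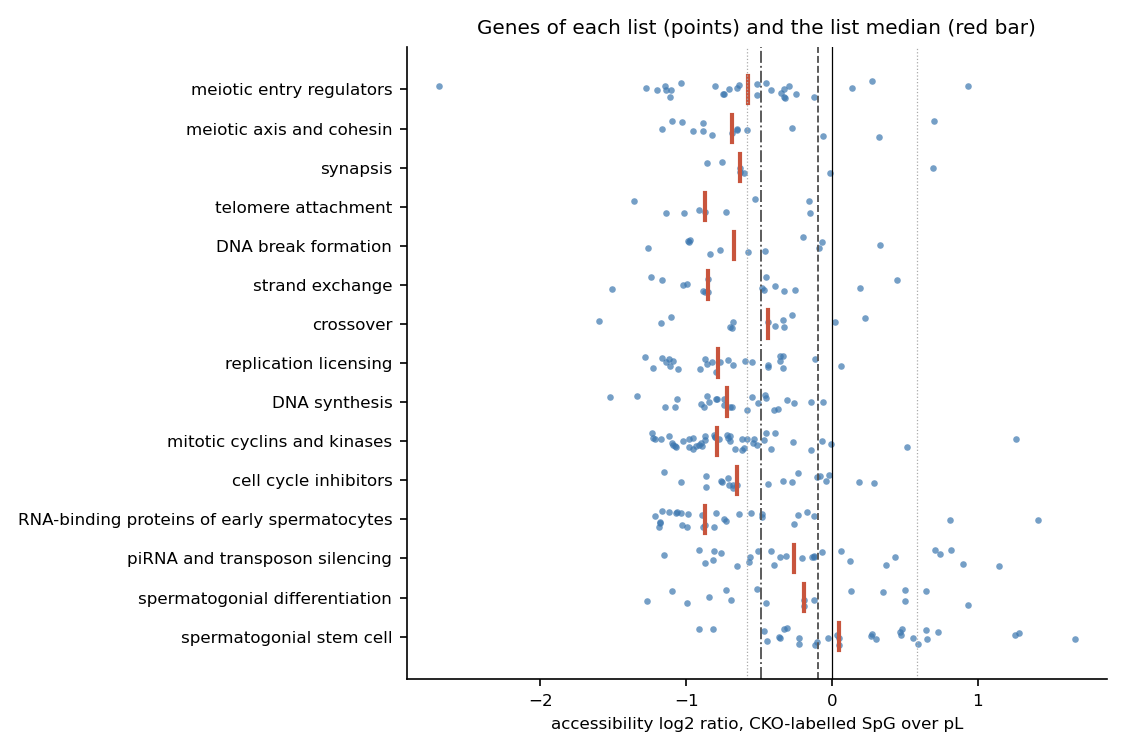
Accessibility log2 ratio of CKO-labelled SpG over pL (x axis) for the genes of 15 lists (1 point per gene, red bar for the list median). The dotted lines mark 1.5-fold, the dashed line the median of all genes (-0.10) and the dash-dotted line that of genes whose mean reached 20 per 1000000 (-0.49). Meioc is the point near -2.70, and the stem-cell median lies at 0.05.

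Apart from the 3 NF-Y subunits (-1.02), the lowest list medians were those of telomere attachment and of RNA-binding proteins, both -0.87, and of strand exchange, -0.85. Mitotic genes followed at -0.79 and licensing genes at -0.78, with 32 of 46 and 17 of 26 lower. Without mitochondrial genes in the scaling 16 of the 46 and 8 of the 26 were lower and both medians were -0.44, against -0.15 for the better covered genes, while those of telomere attachment, RNA-binding and strand exchange genes were -0.55, -0.54 and -0.51. Entry regulators were at -0.58 and crossover genes at -0.44 over all their members. Of their better covered members alone, 14 of 26 and 5 of 8 were lower, with medians of -0.64 and -0.68. The better covered genes as a whole gave 41.5% lower and a median of -0.49. The lowest single ratios after Meioc were not all at genes with lower RNA. Msh5, a crossover factor, had an accessibility of 72.3 per 1000000 in pL and 23.3 in the CKO-labelled SpG, with an RNA ratio of -0.19. Swsap1, which acts in strand exchange, was at 79.1 and 27.2, with an RNA ratio of -0.26. Pcna was at 78.3 and 26.6, and its RNA was lower as well. Of the genes of the 7 lists, 14 were lower in both measures. Over all genes 5.44% were lower in RNA and 23.4% in accessibility (41.5% of the better covered). The share of all genes lower in both is not given here, so the 14 have no background.

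Stem-cell genes had a median accessibility ratio of 0.05, with 7 of 30 higher and 2 lower. Over all genes 18.4% were higher and 23.4% lower, and over the better covered genes 4.04% and 41.5%. Of the 24 better covered stem-cell genes 4 were higher and 2 lower, with a median of 0.004. Without mitochondrial genes in the scaling 14 of the 30 were higher, none was lower and the median was 0.39. All genes then gave 31.6% higher, 9.52% lower and a median of 0.18, and the better covered genes 10.6%, 14.3% and -0.15. Nanos2, the stem-cell RNA-binding protein, was at 6.29 per 1000000 in pL, 17.7 in undiff. SpG and 16.7 in the CKO-labelled SpG, and Upp1 at 11.5, 22.5 and 28.7. Gfra1 was at 22.6 in pL, 39.7 in undiff. SpG and 36.2 in the CKO-labelled SpG. Tspan8, a surface protein of stem cells, had the highest ratio of the list, 1.67. For Nanos2, Upp1 and Gfra1 the accessibility of the CKO-labelled SpG was nearer to undiff. SpG than to pL. Etv5, whose RNA was 7.88-fold higher, was not among them, with an accessibility ratio of -0.44. Over all genes, the lowest ratios among the better covered genes included those of Meioc, Gbf1, Gm26917 and Hist1h4a, and the 5 highest were those of Grm7, Grin3a, Kcnc2, Asphd2 and Nwd2. Gbf1, which encodes a Golgi exchange factor, was at 46.5 in undiff. SpG, 68.0 in pL and 15.8 in the CKO-labelled SpG, with an RNA ratio of -1.95. Like Meioc, Gbf1 was below undiff. SpG as well as below pL, in RNA and in accessibility.

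**Figure D4:**
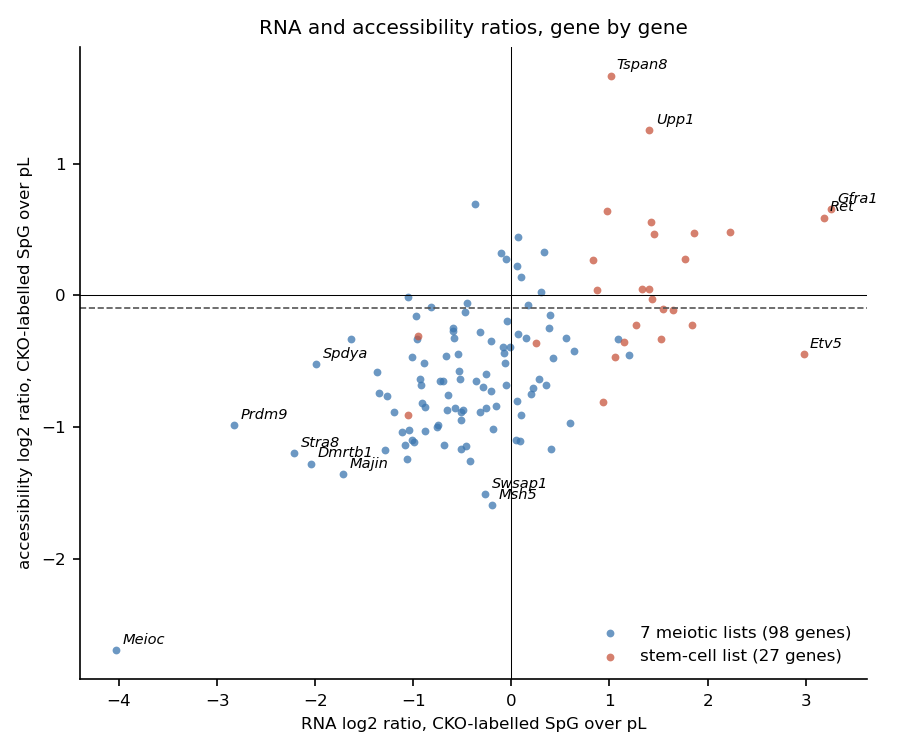
RNA log2 ratio (x axis) and accessibility log2 ratio (y axis) of CKO-labelled SpG over pL, with 1 point per gene, for 98 genes of the 7 meiotic lists (blue) and 27 of the stem-cell list (red). The dashed line is the accessibility median of all genes, -0.10. Meioc lies alone at the lower left, and Etv5 is the red point near 3 on the x axis with accessibility below 0.

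Accessibility was lower at genes with more CCAAT boxes in the promoter. The counts of CCAAT and ATTGG, on both strands, were made in the first listed RefSeq promoter of 9151 genes whose mean reached 20 per 1000000. The median log2 ratio to pL was -0.45 for the 5521 genes with no match, -0.49 for the 2143 with 1, -0.66 for the 935 with 2 and -0.94 for the 552 with 3 or more. The share lower by 1.5-fold was 36.7%, 41.5%, 57.1% and 79.2% in that order, against 41.5% for all better covered genes. The promoters with more matches also had more signal, with a median of 35.5 per 1000000 for no match and 47.8 for 3 or more. Within genes of 20 to 40 per 1000000 the medians went from -0.28 with no match to -0.64 with 3 or more, and within those of 60 and over from -0.74 to -1.08. Set against undiff. SpG, the CKO-labelled SpG gave medians of -0.18, -0.22, -0.34 and -0.50, and undiff. SpG against pL gave -0.27, -0.26, -0.31 and -0.40. Within the same ranges of signal, undiff. SpG against pL went from -0.18 to -0.20 and from -0.48 to -0.49. At 40 to 60 per 1000000 it went from -0.37 to -0.41. CKO-labelled SpG against undiff. SpG went from -0.12 to -0.40 at 20 to 40, from -0.24 to -0.49 at 40 to 60 and from -0.26 to -0.55 at 60 and over. The ranges were set by the mean of the CKO-labelled SpG and pL. RNA medians of the same genes were 0.08, 0.02, -0.11 and -0.22. These are descriptions over genes, which are not replicates, and base composition was not tested.

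**Figure D5:**
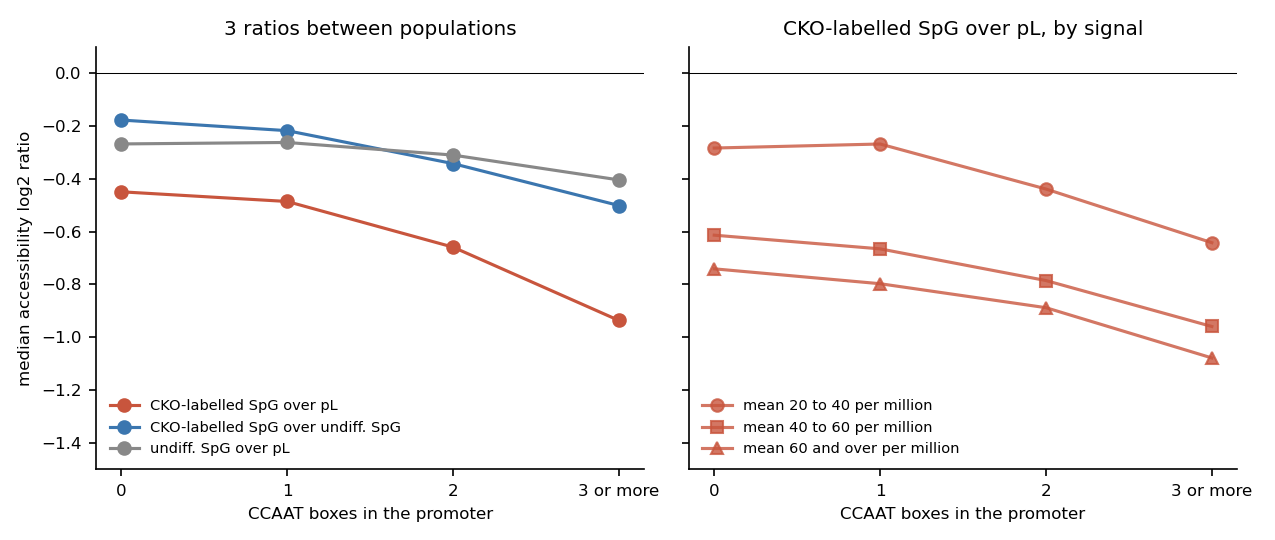
Median accessibility log2 ratio (y axis) by the number of CCAAT boxes in the promoter (x axis). On the left are 3 ratios between populations over 9151 genes, and on the right the ratio of CKO-labelled SpG to pL in 3 ranges of mean signal. All lines are lower at 3 or more boxes than at 0, most for CKO-labelled SpG over pL, from -0.45 to -0.94.

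The lists differed in CCAAT boxes too. Of the matched promoters, 27 of 36 mitotic genes (75%) and 13 of 20 licensing genes (65%) held at least 1, against 37.4% over all promoters. Of the entry regulators 7 of 22 did (31.8%), of the break formation genes 4 of 10 and of the synapsis genes 0 of 7. Axis and cohesin genes held at least 1 in 8 of 14 promoters and crossover genes in 5 of 9. Stem-cell genes, whose median accessibility ratio was 0.05, did so in 11 of 21 (52.4%). Top2a held 6 boxes and Cks2 held 4, and both were lower in RNA and accessibility. Prdm9 held none and was lower in both as well, with an accessibility log2 ratio of -0.98.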

How the data were processed

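Testis nuclei of wild-type mice (11, 17 and 25 dpp), Cre/+ mice and Nfya-CKO mice (both 8 weeks) were profiled for RNA and open chromatin. Per the submitters' processing notes and the methods, the authors aligned scRNA-seq reads with STAR 2.7.10b and scATAC-seq reads with BWA 0.7.12 to mm10, and named cells with Seurat 5.2.1 and ArchR 1.0.3. Only uniquely aligned scRNA-seq reads were kept, so genes with near-identical copies lose reads, duplicates were removed by UMI, and scATAC-seq ends were shifted for the Tn5 cut. Doublets were removed by the authors before deposit, with DoubletFinder for scRNA-seq and ArchR for scATAC-seq. How reads of overlapping genes were assigned is not given in the sources used here.

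The authors deposited, for 13 populations, 1 matrix per assay holding ln(1 + x), the natural log, where x is a pooled mean and sums to 10000 in each population. The deposited cell tables give each cell its raw count of UMIs or fragments, its library and its population name. The percent of mitochondrial UMIs, the fraction of reads in promoters and TSS enrichment, a ratio, are the authors' values per cell. 15 further columns were not used.

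Values were turned back with the exponential minus 1 and compared with Python 3.11.15, numpy 2.4.6 and pandas 2.3.3. RNA ratios used a pseudocount of 0.1 and a minimum mean of 0.05, and accessibility ratios a pseudocount of 1 and any value above 0. A gene was left aside when its RNA in somatic cells of the Nfya-CKO testis was at least 20 times that in undiff. SpG. The comparison was tested on simulated data. Ranges over genes are not errors, and counts of UMIs behind a value were computed from the population total, so they cover counting only. Genes were named if they belonged to the entry regulator, axis and cohesin, break formation or NF-Y lists or to the marker genes, if they had the 4 largest or smallest RNA or the 3 largest or smallest accessibility ratios of another list, or if they were among the 10 (RNA) or 5 (accessibility) most different in each direction over all genes. Chosen outside this rule, after their values were seen, were genes that complete a count or stand beside a named gene, such as Sycp1. The population, the 21 gene lists and the tests were chosen with earlier results of these data known. Median depth and libraries are described with the results. Alternatives covered pseudocounts, filters, scaling, the left-aside rule and the comparison population. A planned split of the study's gene classes by NFYA binding was not made, because those lists were held in part, and bulk experiments were not analysed here. A gene that the rule names is not reported here.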

Additional observations from a re-analysis of the deposited data

How the results depend on the processing

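For RNA, the counts of 1349 higher and 725 lower genes became 2661 and 1207 with a pseudocount of 0.01, 78 and 83 with a pseudocount of 1, 355 and 165 at 3-fold, and 530 and 475 with undiff. SpG as the comparison. With the somatic share removed by uniform scaling, chosen after seeing the data, they became 2530 and 348. With a mean of at least 0.2 there were 896 higher genes, and with diff. SpG as the comparison 1591 lower ones. For accessibility, 5026 higher and 6406 lower genes became 8649 and 2602 without mitochondrial genes in the scaling, 1918 and 1628 at 2-fold, and 2332 and 1624 with undiff. SpG as the comparison. Higher genes numbered 2297 with a pseudocount of 5, 1764 with a mean of at least 10 and 489 with a mean of at least 20, the last chosen after seeing the data. At least 2 CCAAT matches were held by 11.7% of promoters. For named genes past the fold limit, direction turned only where the comparison population was another one. Smaller ratios turned as well with the somatic share removed, when ratios below 0 went from 73 to 56 of the 98 meiotic genes and from 14 to 10 of the axis and cohesin genes, and that of Nfyc, -0.26, turned to a value above 0. RNA log2 ratios against undiff. SpG were 0.14 for Ccdc36, 0.26 for Ctcfl, 0.0738 for Dmc1, 0.23 for Dmrtb1, 0.0681 for Esco2, 0.0284 for Esx1 and 0.46 for Rhox13, and -1.19 for Ccnd2, -0.0488 for Ccnd3, -1.46 for Egr4, -0.50 for Glis3, -0.0396 for Kcnc2, -0.28 for Large2, -0.19 for Morc1, -0.73 for Pcgf6, -1.11 for Piwil4 and -0.72 for Ret. Against diff. SpG they were 1.02 for Aard and -0.98 for Hspa1l. Accessibility log2 ratios against undiff. SpG were 0.0232 for Bbc3, 0.0472 for Stra8 and 0.0106 for Zfp541, and -0.0776 for Ccnd2, -0.0816 for Nanos2, -0.24 for Pgk2, -0.0801 for Piwil4 and -0.22 for Syce1l. Against diff. SpG, for accessibility also chosen after seeing the data, they were -0.62 for Akap4 and -0.18 for Pgk2. No paired analysis was possible because each condition is 1 library. The split of gene classes by NFYA peaks, with its stricter alternative, was not run. Levels under 0.1 per 10000 rest on under 100 UMIs in the CKO-labelled SpG, and the pseudocount understates their folds.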

Other observations

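Genes of the X chromosome were lower more often than others. The pattern was noticed in these data. Of 466 X-linked genes compared, 49 were at least 2-fold lower in RNA in the CKO-labelled SpG than in pL (10.5%) and 34 were higher (7.30%), against 648 (5.30%) and 1251 (10.2%) of 12232 autosomal genes. The lower genes included Esx1, Usp26, a deubiquitinase of male germ cells, Tex13b and Bex4. Usp26 was at 3.53 per 10000 in pL, 2.34 in undiff. SpG and 0.73 in the CKO-labelled SpG. Tex13b was at 2.25, 1.04 and 0.44. The difference between chromosomes was not tested, since genes are not replicates.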
